A study of Mus musculus with 16 samples.

Results

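The 8 genes described here encode proteins of glucose and fructose use in the liver. They are Mlxipl, Gckr, Pfkl, Pfkfb1, Pfkfb3, Pklr, Khk and Tkfc. They were chosen by name, by matching the Ensembl identifiers of the deposited count table to mouse symbols, and they are 8 of the 46078 genes in that table. These genes and the gene lists below were chosen with earlier results of these data known. Their counts beside the shares of all genes are thus descriptions and not tests. All 8 passed the filter on low counts, as did 12910 genes in all. Messenger RNA had been measured by RNA-seq in livers of C57BL/6 mice aged 22 weeks, in 4 groups of 4 libraries. All the mice had diet-induced obesity and a fatty liver, the saline group included. One group received saline as the vehicle, one received Dicretin, an agonist of both the GLP-1 receptor and the glucagon receptor, and one received Semaglutide, an agonist of the GLP-1 receptor. The calorie restricted group was fed less, to bring about a matching loss of weight without a drug. No label used here gives the dose, the length of treatment or the sex of the mice. Libraries are named by their group and the number in their label, as in Dicretin 14, and values are given in the order of those numbers. Nothing in the labels states that each library is a separate animal, so p-values measure the spread between these samples.

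Liver cells take up glucose, phosphorylate it and pass it through glycolysis to pyruvate, and fructose enters the same route below its main control point. Mlxipl encodes ChREBP, the transcription factor that senses sugar phosphates and raises transcription of glycolytic, fructose and fat synthesis genes. Gckr encodes the regulatory protein that binds glucokinase and holds it in the nucleus. Pfkl encodes the liver subunit of phosphofructokinase, the main control point. Pfkfb1 and Pfkfb3 encode enzymes that make and break down fructose-2,6-bisphosphate, the strongest activator of that step. Pklr encodes the pyruvate kinase of liver and red cells, the last step. Khk encodes ketohexokinase, which starts fructose breakdown, and Tkfc encodes triokinase, which acts at a later step. Glucagon, through cyclic AMP, is known to slow hepatic glycolysis and to favour the making of glucose.

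In GENCODE M21, on the GRCm38 assembly (mm10), Mlxipl lies at chr5:135089890-135138382, Gckr at chr5:31297443-31327314 and Khk at chr5:30921431-30931248, all on the plus strand. Pklr lies at chr3:89136142-89146784 and Pfkfb1 at chrX:150588229-150643878, also on the plus strand. Pfkl lies at chr10:77986947-78010083, Pfkfb3 at chr2:11471433-11554077 and Tkfc at chr19:10587791-10605654, on the minus strand. Pklr shares 711 bases, 22.0% of its exon length, with Hcn3 on the other strand. Tkfc shares 596 bases (12.9%) with Cyb561a3 and 328 bases (7.1%) with Ddb1, Mlxipl shares 235 bases (4.24%) with the antisense gene Gm43500, and Pfkfb1 shares 123 bases (3.06%) with Apex2. How the counting treated strand is not given in these sources, so reads in those shared bases cannot be assigned to one gene.

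The stretches just before the start sites are shown because Pklr, Khk and Tkfc stood high together in 1 Dicretin library, in which Mlxipl, whose protein is known to bind carbohydrate response elements, was below every saline library. Sequences are from RefSeq on GRCm38.p6, read 5′ to 3′ on the gene's strand. All 8 genes matched, with 14 start sites among them, and 250 bases before each start were searched on both strands. Capitals mark the matches to any of the motifs named after the sequences. Each stretch ends where the next GENCODE exon of the same gene begins. Those of Pklr, Tkfc and Pfkfb3 belong to start sites inside the GENCODE gene and lie between its exons, while that of Mlxipl lies before the gene. For Khk only the 30 bases around the match are shown, because they lie inside an annotated exon.
Pklr, chr3:89136373-89136571, plus strand: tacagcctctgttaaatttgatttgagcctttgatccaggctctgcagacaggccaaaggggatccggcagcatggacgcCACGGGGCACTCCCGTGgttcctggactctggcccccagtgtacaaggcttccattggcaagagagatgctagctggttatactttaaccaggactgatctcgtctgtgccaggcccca
Khk, chr5:30921475-30921504, plus strand: cagcgttcccCGTCACGTGacaccgttaat
Tkfc, chr19:10604274-10604508, minus strand: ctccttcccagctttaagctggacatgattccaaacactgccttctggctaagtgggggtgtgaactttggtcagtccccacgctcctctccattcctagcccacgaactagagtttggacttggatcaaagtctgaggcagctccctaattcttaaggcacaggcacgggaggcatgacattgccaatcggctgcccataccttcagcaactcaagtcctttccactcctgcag
Mlxipl, chr5:135089640-135089889, plus strand: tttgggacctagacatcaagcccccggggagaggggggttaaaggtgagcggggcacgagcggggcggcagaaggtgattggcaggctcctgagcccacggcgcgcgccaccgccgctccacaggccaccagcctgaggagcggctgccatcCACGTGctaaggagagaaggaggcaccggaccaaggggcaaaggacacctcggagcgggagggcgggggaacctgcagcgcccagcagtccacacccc
Pfkfb3, chr2:11502102-11502340, minus strand: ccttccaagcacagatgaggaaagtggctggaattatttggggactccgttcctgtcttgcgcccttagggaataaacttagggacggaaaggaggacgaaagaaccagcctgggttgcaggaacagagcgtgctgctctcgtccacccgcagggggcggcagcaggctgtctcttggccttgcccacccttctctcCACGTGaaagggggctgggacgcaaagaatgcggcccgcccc

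The carbohydrate response element, made of 2 E-box-like parts, was searched as CANGNG followed by any 5 bases and then CNCNTG, which reads the same on both strands. It matched 1 of the 14 windows, that of the Pklr start at position 89136623, where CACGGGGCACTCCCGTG lies 170 to 154 bases before the start. Among all 32851 RefSeq windows of the same length, 0.454% held a match. A single full E-box, CACGTG, was found before 3 starts, 71 to 66 bases before that of Khk, 98 to 93 bases before that of Mlxipl at position 135089890, and 53 to 48 bases before that of Pfkfb3 at position 11502090. It was present in 6.02% of all windows. The cyclic AMP response element TGACGTCA was found in 0 of the 14 windows and in 1.55% of all windows. Its shorter form TGACG, searched on both strands, was found in 3 windows of 2 genes, against 17.8% of all windows. In Khk it overlaps the E-box, so that both share the printed run CGTCACGTG, and the other 2 windows belong to Pfkfb3. The Tkfc window holds none of these letters, which says nothing of whether a factor binds there. The counts per gene sum over all start sites.

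Library totals ran from 12143829 to 18755393 counts and no library pair was identical. On the first principal component of all tested genes the Dicretin libraries lay between 66.57 and 76.84 and the other 12 between -30.4 and -11.67. Macrophage markers (8 genes) summed to 177 to 299 CPM (counts scaled to a library total of 1000000) in saline, 64.1 to 251 under calorie restriction, 84.8 to 302 with Semaglutide and 166 to 502 with Dicretin. Hepatocyte markers (8 genes, albumin included) summed to 97170 to 116400 in saline, 127600 to 147400 under calorie restriction, 118200 to 146200 with Semaglutide and 81840 to 100900 with Dicretin, so all libraries held them at high levels. They did not move together, since Alb had its lowest group mean with Dicretin (59530 against 81570 in saline) while Cps1 (5849 against 2001) and Tat (4482 against 527) had their highest. The part of cell makeup in the results below was not tested, and in whole liver fewer cells of a type and less RNA per cell cannot be told apart. Semaglutide 15 held skeletal muscle RNA, with Acta1 at 229, Tnnt3 at 197 and Ckm at 77.4 CPM against at most 0.175 in any other library. Dicretin 64 held pancreatic RNA, with Prss2 at 178 CPM and 0 in all others. In Dicretin 64, Pfkfb1 was the lowest and Pfkfb3 the highest of the 4 Dicretin values, and the other 6 genes lay between their mates.

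Among the 8 genes, per kilobase of exon and in saline, Khk was highest with 312 ± 37.9 CPM per kilobase (SD, n = 4). Tkfc followed at 98.4 ± 23.9 and Pklr at 80.5 ± 21.8, and these 2 did not differ beyond their spread. Gckr was at 40.4 ± 2.53, Mlxipl at 25.0 ± 4.22, Pfkfb1 at 10.3 ± 0.363, Pfkl at 5.58 ± 0.318 and Pfkfb3 at 1.08 ± 0.095. The steps between those last 5 each exceeded the spread of the libraries. All values that follow are CPM after TMM scaling of the library totals, unless a sentence says per kilobase.

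With Dicretin part of the set was lower, and Gckr lay near its level in the other groups. Against saline, 4 of the 8 genes fell (Mlxipl, Pfkfb1, Pfkfb3 and Pklr) and 0 rose, by the quasi-likelihood test of edgeR at an adjusted p (Benjamini-Hochberg, over 12910 genes) under 0.05. Of all tested genes, 36.7% passed in either direction and 19.2% were lower. Against calorie restriction 5 of the 8 fell (Mlxipl, Pfkfb1, Pfkl, Tkfc and Pklr), where 31.3% of all genes passed and 16.2% were lower. Against Semaglutide 3 of the 8 fell (Mlxipl, Pfkfb1 and Pfkfb3), where 32.0% of all genes passed and 17.1% were lower. No overlap between the groups, all 4 Dicretin libraries being lower, was seen for 4 of the 8 against saline (18.6% of all genes), for 2 against calorie restriction (15.2%) and for 3 against Semaglutide (14.2%). The fitted log2 fold change was negative for all 8 genes in each of these comparisons, with medians of -0.84, -0.74 and -0.89, beside medians over all genes of -0.01, 0.00 and -0.01. Dicretin 14 stood apart from its mates for some of the genes, and without it 6 of the 8 fell in each of these comparisons. It was singled out by its values in these genes, so the higher counts are not separate support. Over all genes, leaving out 1 library gave 3921 to 5350 calls against saline, 3262 to 4597 against calorie restriction and 3580 to 4240 against Semaglutide. Without Dicretin 64, the library with pancreatic RNA, the counts among the 8 genes were 3 against saline, 3 against calorie restriction and 3 against Semaglutide. Without Semaglutide 15, with muscle RNA, the count against calorie restriction was 3. The Dicretin libraries are the same in all 3 comparisons, so these medians are not separate observations. Semaglutide against saline called 0 of the 8 by edgeR and 0 by DESeq2, where 4.18% of all genes passed at an adjusted p under 0.05. At an unadjusted p under 0.05 there were 2 (Mlxipl and Pfkfb3), and the share of all genes at that limit was not computed. Calorie restriction against saline also called 0 by either tool, where 7.53% of all genes passed at an adjusted p under 0.05. Here too 2 had an unadjusted p under 0.05 (Pfkfb1 and Pfkfb3), again without a share of all genes. Semaglutide against calorie restriction called 1, Pfkfb3, which was higher (2 without Dicretin 14, Tkfc being lower), where 6.12% passed and 3.05% were higher. Pfkfb3 was also the 1 gene whose groups did not overlap in these last 3 comparisons. It was higher with Semaglutide than in saline (6.4% of all genes), lower under calorie restriction than in saline (11.9%) and higher with Semaglutide than under calorie restriction (7.41%).

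**Figure D1:**
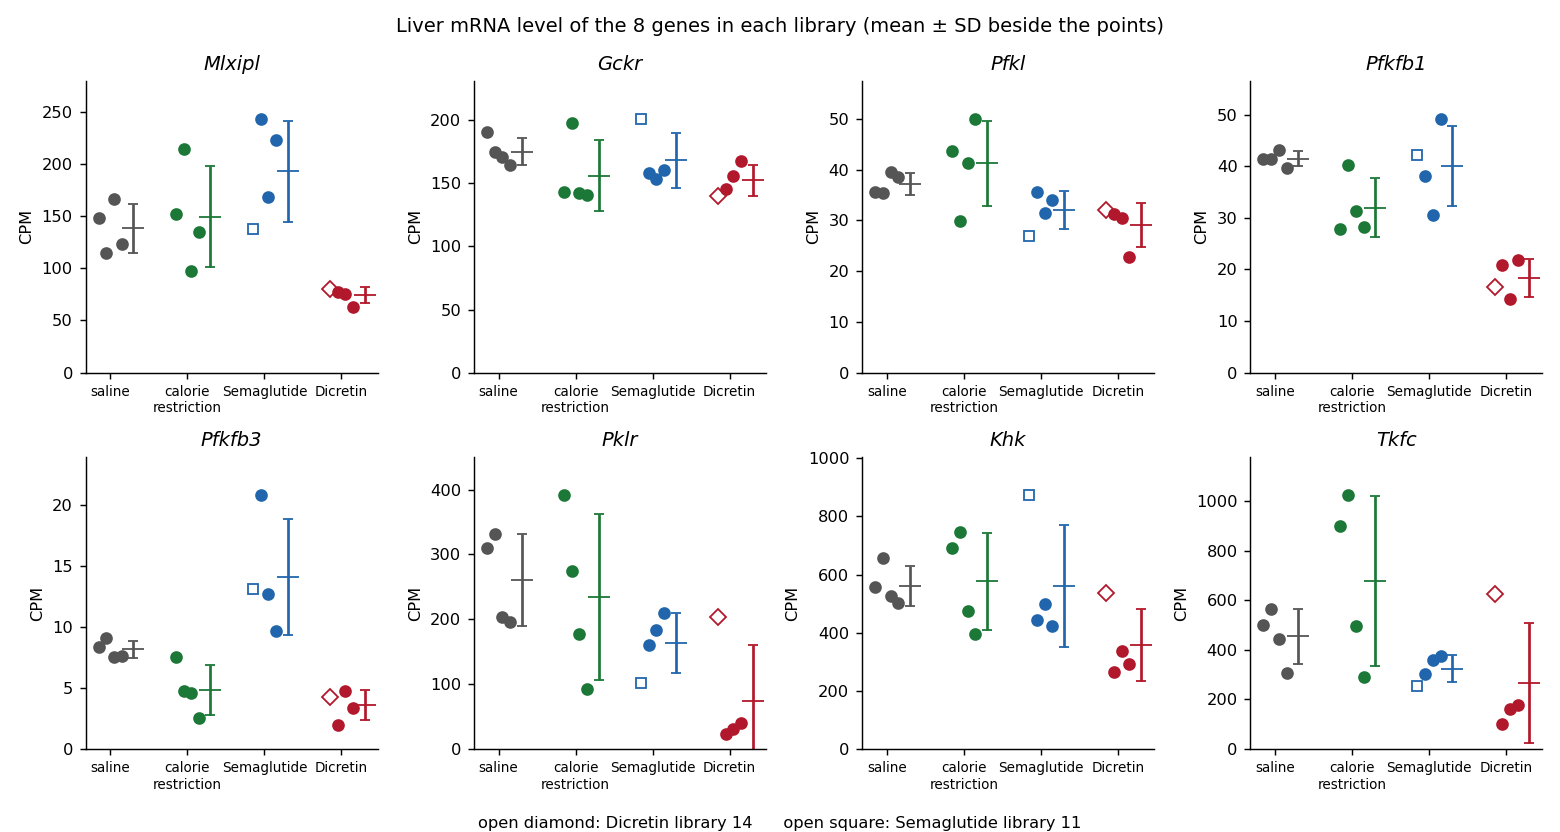
Level of each of the 8 genes in CPM (vertical axes, from 0) in every library, by group, with the group mean and SD as a cross bar beside the points. The Dicretin SD bar of Pklr reaches 0 and is not drawn below it. Mlxipl and Pfkfb1 are below every other library in all 4 Dicretin libraries, whereas for Pklr, Khk and Tkfc the open diamond (Dicretin 14) sits apart from the other 3. The open square is Semaglutide 11.

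Mlxipl was lower in all 4 Dicretin libraries than in any of the other 12. Its level was 149, 115, 166 and 124 CPM in saline and 152, 214, 97.3 and 135 under calorie restriction. It was 138, 243, 169 and 223 with Semaglutide and 80.5, 77.3, 75.8 and 62.8 with Dicretin. The Dicretin group was thus the lowest and the narrowest, at 74.1 ± 7.78 CPM (SD, n = 4), against 138.5 ± 23.4 in saline, 149.8 ± 48.8 under calorie restriction and 193 ± 48.6 with Semaglutide. The log2 fold change of Dicretin was -0.90 ± 0.22 against saline (SE, adjusted p = 0.00316), -1.01 ± 0.22 against calorie restriction (adjusted p = 0.00168) and -1.38 ± 0.22 against Semaglutide (adjusted p = 9.4e-05). The Semaglutide mean was the highest of the 4, but its libraries overlapped those of saline, and the difference of 0.48 ± 0.21 did not pass (adjusted p = 0.226). Its highest library, at 243 CPM, was Semaglutide 15, the one with muscle RNA. Saline and calorie restriction overlapped as well, with a 95% interval of the log2 difference from -0.34 to 0.56.

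Gckr was the steadiest of the 8 genes across groups. Saline libraries were at 190.5, 175, 171 and 165 CPM, calorie restricted ones at 143, 198, 142 and 141, Semaglutide ones at 201, 158, 153 and 161, and Dicretin ones at 140.0, 146, 156 and 168. Every pair of groups overlapped, and the spread came mostly from calorie restricted 8 and Semaglutide 11, which stood above their mates. The fitted difference of Dicretin from saline was -0.20 on the log2 scale with a 95% interval from -0.49 to 0.09 (adjusted p = 0.274). Against calorie restriction the interval ran from -0.32 to 0.26, and against Semaglutide from -0.43 to 0.15. A fall of more than 0.49 on the log2 scale, of the kind seen for Mlxipl, thus lay outside each of these 3 intervals.

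Pfkl was slightly lower with Dicretin, and the call depended on the group it was set against. Its level was 35.5, 35.3, 39.6 and 38.5 CPM in saline, 43.8, 29.99, 41.4 and 50.0 under calorie restriction, 27.0, 35.5, 31.5 and 34.0 with Semaglutide, and 32.2, 31.3, 30.5 and 22.8 with Dicretin. Every Dicretin library lay below every saline library, yet the log2 fold change of -0.35 ± 0.16 did not pass (adjusted p = 0.0893). Against calorie restriction it was -0.50 ± 0.16 and passed (adjusted p = 0.0216), although calorie restricted 8 lay inside the Dicretin range. That call was lost without calorie restricted 7, calorie restricted 79 or Dicretin 65, where adjusted p was 0.062, 0.0857 and 0.0723, and with only the groups compared in the fit, where it was 0.06. Dicretin and Semaglutide did not differ beyond their spread, with an interval from -0.46 to 0.20.

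Within the phosphofructokinase family, Pfkl held a nearly fixed share of the summed level per kilobase in saline, 51.7% ± 0.078 (SD, n = 4). The rest was almost all Pfkm, the muscle-type subunit. The Pfkl share was 57.3% ± 2.27 under calorie restriction, 42.7% ± 7.55 with Semaglutide and 42.0% ± 6.05 with Dicretin. The low end in Semaglutide was the library with muscle RNA, Semaglutide 15, with a share of 32.7% and Pfkm at 36.2 CPM against 12.7 to 21.5 in its mates. Pfkp, the platelet-type subunit, made up 1.33% of the family in saline and 8.25% ± 2.36 with Dicretin. Its level rose from 1.90 ± 0.594 CPM in saline to 11.5 ± 3.05 with Dicretin, a log2 fold change of 2.57 ± 0.29 (adjusted p = 1.95e-06). The family shares are descriptions and were not tested.

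Pfkfb1, the liver form of the enzyme pair that sets fructose-2,6-bisphosphate, fell with Dicretin in every library. It was at 41.5, 41.4, 43.2 and 39.7 CPM in saline, 27.9, 40.3, 31.4 and 28.3 under calorie restriction, 42.1, 38.1, 30.6 and 49.2 with Semaglutide, and 16.5, 20.9, 14.2 and 21.9 with Dicretin. The highest Dicretin library was below the lowest of all others. The log2 fold change was -1.17 ± 0.17 against saline (adjusted p = 4.0e-05), -0.80 ± 0.17 against calorie restriction (adjusted p = 0.00177) and -1.12 ± 0.17 against Semaglutide (adjusted p = 7.23e-05). Calorie restriction lay between saline and Dicretin, and its difference from saline, -0.38 ± 0.17, did not pass in the fit of all 16 libraries (adjusted p = 0.187). Apex2, which shares bases with Pfkfb1 on the other strand, rose from 4.83 ± 0.676 CPM in saline to 11.5 ± 4.22 with Dicretin (log2 fold change 1.25 ± 0.22, adjusted p = 0.000238).

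Pfkfb3, an inducible form with high kinase activity, was the only gene of the 8 called between Semaglutide and calorie restriction. Saline libraries held 8.37, 9.06, 7.54 and 7.60 CPM, calorie restricted ones 7.53, 4.73, 4.55 and 2.54, Semaglutide ones 13.1, 20.8, 12.7 and 9.63, and Dicretin ones 4.28, 1.96, 4.73 and 3.38. All 4 Semaglutide libraries lay above all saline libraries, and all calorie restricted and Dicretin libraries lay below them. The highest value, 20.8, was that of Semaglutide 15, the library with muscle RNA. Calorie restricted 7 (7.53) lay only just below saline 73 (7.54). The order of the means was Semaglutide (14.1), saline (8.14), calorie restriction (4.84) and Dicretin (3.59), and the last 2 overlapped. Semaglutide exceeded calorie restriction by 1.53 ± 0.30 on the log2 scale (adjusted p = 0.00515). Dicretin was lower than saline by a log2 fold change of -1.18 ± 0.31 (adjusted p = 0.00593) and than Semaglutide by one of -1.96 ± 0.31 (adjusted p = 9.39e-05). Neither Semaglutide nor calorie restriction passed against saline, with 0.79 ± 0.29 for Semaglutide (adjusted p = 0.145) and -0.75 ± 0.30 for calorie restriction (adjusted p = 0.141).

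As shares of the 4 Pfkfb genes per kilobase, Pfkfb1 made up 84.9% ± 2.01 in saline, 84.8% ± 3.01 under calorie restriction, 79.3% ± 5.58 with Semaglutide and 73.4% ± 6.07 with Dicretin. Pfkfb3 made up 15.1% ± 5.19 with Semaglutide, highest in Semaglutide 15 at 21.2%, and between 6.92% and 8.86% on average elsewhere. Pfkfb2, the form best known from heart, made up 4.82% ± 1.20 in saline and 16.7% ± 3.28 with Dicretin, where its level rose by 0.81 ± 0.26 on the log2 scale (adjusted p = 0.0186). Without Dicretin 65, saline 73 or saline 78 that rise no longer passed, with adjusted p of up to 0.0606. Tigar, a phosphatase acting on fructose-2,6-bisphosphate, rose by 1.22 ± 0.24 (adjusted p = 0.000664), from 9.18 ± 1.91 to 21.5 ± 7.37 CPM.

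Pklr fell steeply in 3 of the 4 Dicretin libraries and not in the fourth. It was at 310.0, 332, 203 and 196 CPM in saline, 391, 275, 178 and 92.9 under calorie restriction, 101, 160.2, 183 and 209.6 with Semaglutide, and 203, 22.1, 31.2 and 39.9 with Dicretin. Dicretin 14 alone lay inside the saline range, at 6.54 times the mean of its mates. The log2 fold change with all libraries was -1.81 ± 0.60 against saline (adjusted p = 0.0281) and -1.66 ± 0.60 against calorie restriction (adjusted p = 0.047), and it was -1.14 ± 0.59 against Semaglutide (adjusted p = 0.162). Without Dicretin 14 these became -3.05 (adjusted p = 5.83e-05), -2.91 (adjusted p = 0.000101) and -2.39 (adjusted p = 0.000458). The call against saline was lost without any one of Dicretin 23, 64 or 65 or saline 35 or 50, with adjusted p between 0.0654 and 0.082, and also without the filter on low counts (0.096) or with only the groups compared in the fit (0.0694). Hcn3, on the opposite strand, was also highest in Dicretin 14, with 25.4 CPM in library 14 and 0.952 to 1.35 in its mates.

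Pklr made up 95.4% ± 0.759 of the pyruvate kinase level per kilobase in saline, with Pkm, the form of most other tissues, as the rest. With Dicretin the Pklr share was 92.4% in library 14 and between 58.2% and 68.9% in its mates. Pkm was at 18.9 ± 2.61 CPM in saline and 27.9 ± 4.73 with Dicretin, a log2 difference of 0.56 ± 0.23 that did not pass (adjusted p = 0.0576). Every Dicretin library nonetheless lay above every saline library. Pkm with Dicretin did pass against calorie restriction (0.79 ± 0.23, adjusted p = 0.0123) and against Semaglutide (0.78 ± 0.23, adjusted p = 0.0132), though it overlapped Semaglutide.

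**Figure D2:**
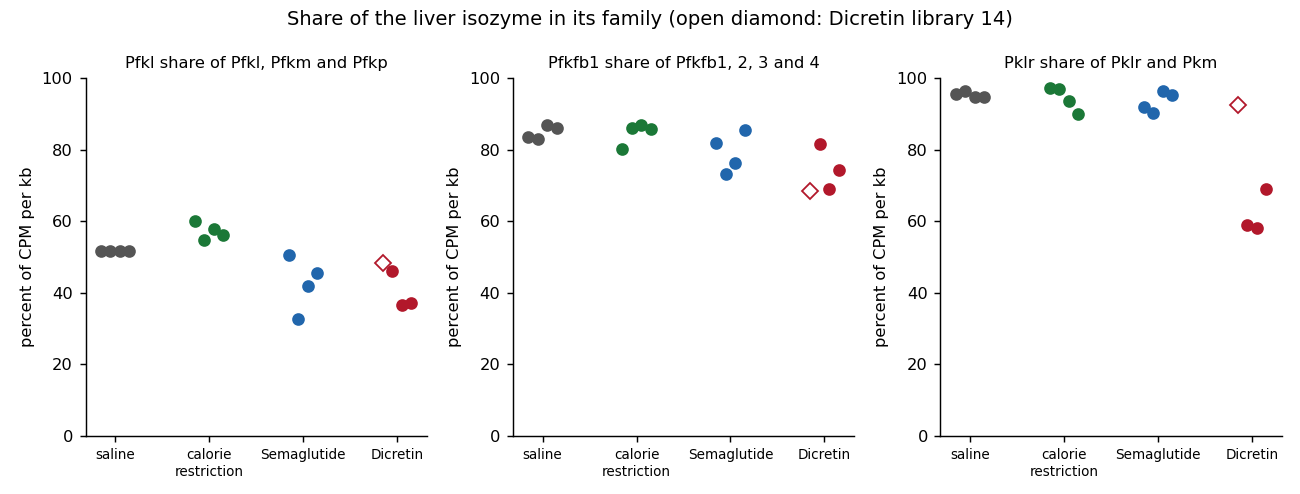
Share of the liver-type gene in its enzyme family, in percent of the summed CPM per kilobase (vertical axes, 0 to 100), for each library by group. The saline points of Pfkl fall together at 51.7%, and Pklr drops to between 58.2% and 68.9% in 3 Dicretin libraries while Dicretin 14 (open diamond) is at 92.4%.

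Khk, the enzyme that phosphorylates fructose, was lowest in 3 of the 4 Dicretin libraries, as Pklr was, over a smaller range. Saline libraries were at 559, 657, 525 and 502 CPM, calorie restricted ones at 691, 745, 475 and 395, Semaglutide ones at 873, 444, 499 and 424, and Dicretin ones at 537, 265, 336 and 292. Dicretin 14 lay inside the saline range and its 3 mates lay below all 12 other libraries. The log2 fold changes of Dicretin were -0.65 ± 0.26 against saline, -0.69 ± 0.26 against calorie restriction and -0.65 ± 0.26 against Semaglutide, and none passed (adjusted p = 0.0574, 0.0508 and 0.0645). Without Dicretin 14 they were -0.89, -0.95 and -0.91 and all passed (adjusted p = 0.00955, 0.00758 and 0.0105). That library was singled out by high Pklr, Khk and Tkfc, so stronger results without it are not separate support for these genes. With 1 library left out, adjusted p reached 0.173, 0.157 and 0.264, and the fold change against Semaglutide was as small as -0.35. Semaglutide did not differ from saline, with an interval from -0.54 to 0.54, and 1 library, Semaglutide 11, stood high in it.

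Tkfc, which phosphorylates the glyceraldehyde made from fructose, had the widest scatter after Pklr, relative to the mean, in saline, calorie restriction and Dicretin. It was at 499, 566, 445 and 307 CPM in saline, 899.8, 1025, 497 and 290.2 under calorie restriction, 256, 302, 359.6 and 374 with Semaglutide, and 627, 99.2, 159 and 176 with Dicretin. Dicretin 14 was above every saline library and its mates were below every library of the other groups. With all libraries the log2 fold change was -0.77 ± 0.48 against saline (adjusted p = 0.221), -1.35 ± 0.48 against calorie restriction (adjusted p = 0.0434) and -0.28 ± 0.47 against Semaglutide (adjusted p = 0.689). Without Dicretin 14 it was -1.63 (adjusted p = 0.0018), -2.22 (adjusted p = 0.000214) and -1.15 (adjusted p = 0.0187). The call against calorie restriction was lost under 14 of the 25 other settings tried, and that of Pklr under 16. Of the neighbours on the other strand, Cyb561a3 was lower with Dicretin than under calorie restriction, by -0.68 ± 0.24 (adjusted p = 0.0388), and Ddb1 showed a difference of -0.08 ± 0.14 (adjusted p = 0.705).

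**Figure D3:**
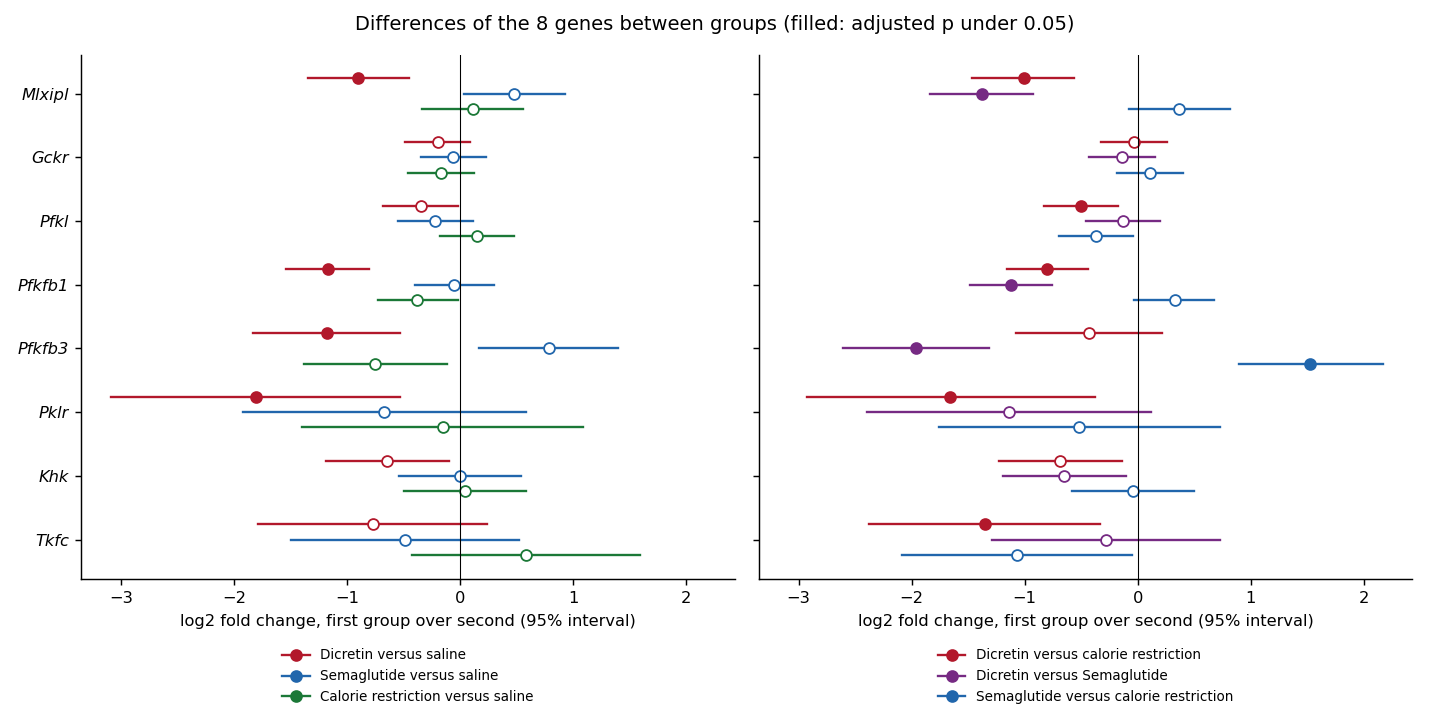
Log2 fold change of each gene in the 6 comparisons (horizontal axes) with its 95% interval, and filled points where adjusted p was under 0.05. All Dicretin points lie left of 0, with the narrowest intervals for Gckr, Pfkl and Pfkfb1 and the widest for Pklr and Tkfc.

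The calorie restricted group was split for the same 3 genes, though not for these alone. Calorie restricted 7 and 8 were above calorie restricted 52 and 79 in Pklr (391 and 275 against 178 and 92.9 CPM), in Khk (691 and 745 against 475 and 395) and in Tkfc (899.8 and 1025 against 497 and 290.2). Mlxipl was also highest in these 2 libraries (152 and 214 against 97.3 and 135), as was Thrsp, a fat synthesis gene induced by sugar (998 and 1039 against 259 and 91.4). The SD of Tkfc and Pklr in this group came to 50.6% and 54.8% of the mean, against 24.3% and 27.1% in saline. Pfkfb3 (7.53 and 4.73 against 4.55 and 2.54) and Gckr (143 and 198 against 142 and 141) had the same order, by small margins in places. Pfkl and Pfkfb1 did not. The share of all tested genes with this order was not computed. No label tells the 2 pairs apart, so the split is given as values.

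Of 18 glycolytic enzyme genes, Pfkl and Pklr included, 5 rose and 2 fell against saline, with a median log2 fold change of 0.15. That share is near the 36.7% of all tested genes called in this comparison. Aldoc fell from 7.23 ± 1.34 to 1.90 ± 1.06 CPM, a log2 fold change of -1.91 ± 0.41 (adjusted p = 0.00142). Aldoa rose by 1.49 ± 0.17 (adjusted p = 3.21e-06) and Pgam1, phosphoglycerate mutase, by 0.62 ± 0.12 (adjusted p = 0.000421). Against Semaglutide 8 of the 18 rose and 1 fell (32.0% of all genes called), and against calorie restriction 5 rose and 3 fell (31.3%). The last count, 8 called in all, was 5 without Dicretin 65 or calorie restricted 7 and with only the groups compared in the fit. The muscle RNA in Semaglutide 15 came with more Eno3, the muscle enolase (18.0 CPM, mates 1.56 to 3.95), and more Aldoa (143.5 CPM, mates 87.0 to 106). Without that library the 9 called between Dicretin and Semaglutide became 8. In Semaglutide against saline 3 of the 18 fell, but without Semaglutide 11 or 15 only 1 was called, and without Semaglutide 31 or saline 35, 50 or 73 it was 0.

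Of 9 genes of fructose and sorbitol use, Khk and Tkfc included, 4 fell with Dicretin against saline, with a median of -0.65. Of all tested genes 36.7% were called and 19.2% were lower. Without Dicretin 14, singled out partly by Khk and Tkfc, 6 of the 9 were called. Leaving out 1 library gave at most 5350 calls over all genes, against 4734 in the main fit. The strongest fall was that of Slc2a2, the glucose and fructose transporter of the hepatocyte surface. It was at 418, 439, 409 and 388 CPM in saline and 83.1, 53.3, 24.3 and 41.5 with Dicretin, a log2 fold change of -3.03 ± 0.26 (adjusted p = 1.07e-07). Dicretin 14 was the highest of its group there too, but remained far below saline. Sord, sorbitol dehydrogenase, fell by 0.63 ± 0.12 (adjusted p = 0.000649), and Glyctk, glycerate kinase, fell by 0.78 ± 0.16 (adjusted p = 0.00101). Slc2a5, a fructose transporter, was at 10.3 ± 1.87 CPM in saline and 4.47 ± 1.57 with Dicretin, a log2 fold change of -1.21 ± 0.30 (adjusted p = 0.00381). It also fell under calorie restriction, to 3.35 CPM (-1.62 ± 0.30 against saline, adjusted p = 0.00294), and the difference between Dicretin and calorie restriction did not pass (0.41 ± 0.31, adjusted p = 0.334). Aldh1b1, an aldehyde dehydrogenase, was low with Semaglutide, at 25.2 ± 4.84 CPM against 78.6 ± 9.83 in saline and 90.6 ± 37.0 with Dicretin. Dicretin exceeded Semaglutide there by 1.85 ± 0.21 (adjusted p = 3.31e-06).

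**Figure D4:**
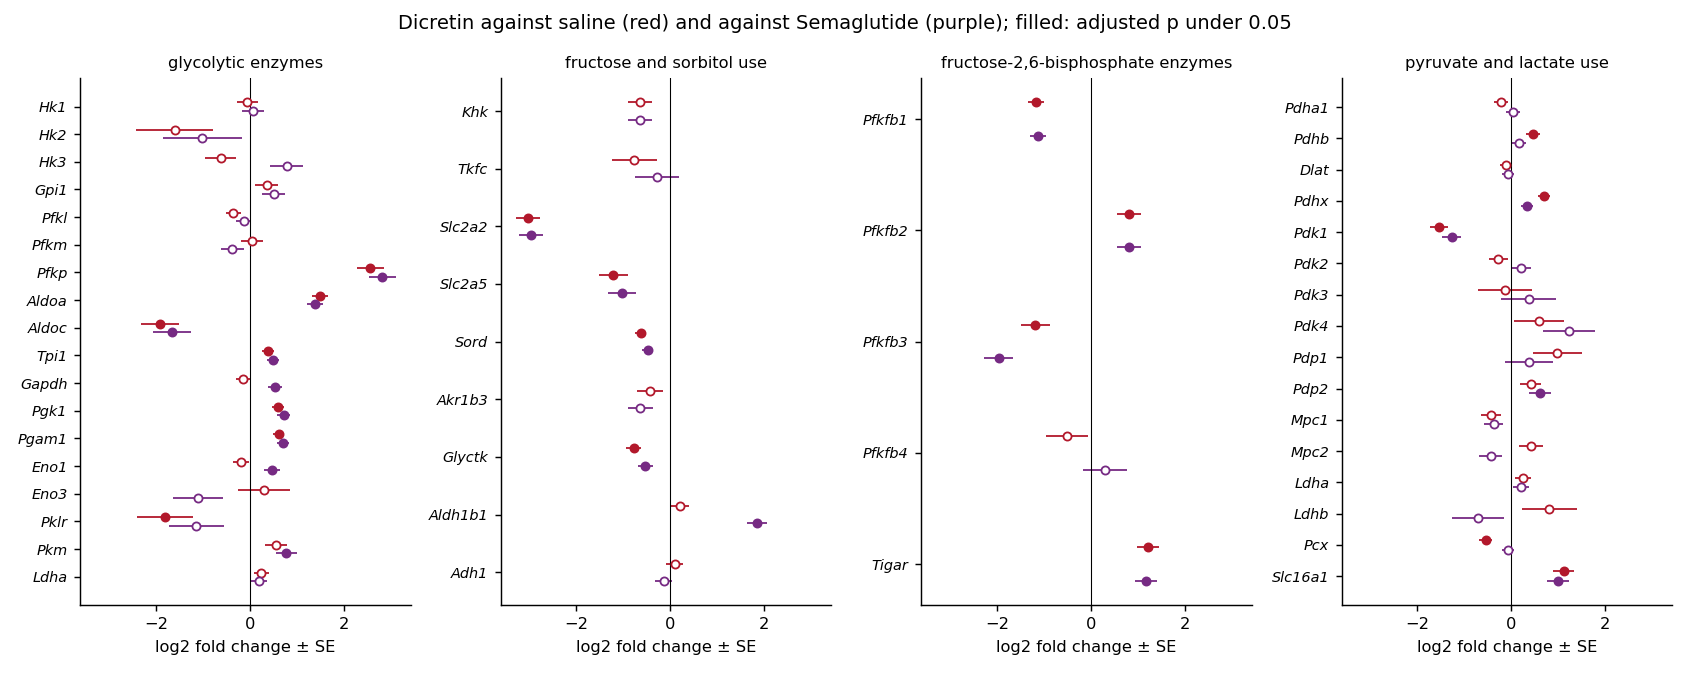
Log2 fold change ± SE (horizontal axes) of the genes of 4 lists for Dicretin against saline (red) and against Semaglutide (purple), filled where adjusted p was under 0.05. Pfkp and Aldoa lie to the right and Slc2a2, Aldoc, Pfkfb1, Pfkfb3 and Pdk1 to the left in both comparisons.

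Of 16 genes of pyruvate and lactate use 3 rose and 2 fell with Dicretin against saline, a share below the 36.7% of all genes. Pdk1, a kinase that inhibits pyruvate dehydrogenase, fell by 1.54 ± 0.20 (adjusted p = 1.42e-05), Pdhx, a structural part of that complex, rose by 0.70 ± 0.13 (adjusted p = 0.000341), and Pcx, pyruvate carboxylase, fell by 0.55 ± 0.13 (adjusted p = 0.00307). Dicretin did not pass for Pcx against calorie restriction (-0.23, adjusted p = 0.187) or Semaglutide (-0.08, adjusted p = 0.673). Semaglutide against saline was -0.47 for Pcx (adjusted p = 0.0502). Slc16a1, a lactate transporter, rose by 1.11 ± 0.23 (adjusted p = 0.000933). Slc16a1 rose under calorie restriction as well, by 1.19 ± 0.23 (adjusted p = 0.00341), and Dicretin and calorie restriction differed by -0.08 ± 0.22 (adjusted p = 0.809). Of 8 pentose phosphate genes 1 rose and 2 fell, a share near that of all genes, with falls of Tkt by 1.08 ± 0.25 (adjusted p = 0.0025) and Taldo1 by 0.95 ± 0.16 (adjusted p = 0.000186), the 2 sugar-exchanging enzymes of that pathway. G6pdx, its first enzyme, rose by 0.83 ± 0.25 (adjusted p = 0.0153). Dicretin did not pass for Tkt against Semaglutide (-0.41, adjusted p = 0.233) or for G6pdx against calorie restriction (0.52, adjusted p = 0.121). Of the 6 tested genes of the opposite, glucose-making steps, 4 rose and 2 fell, where 36.7% of all genes were called. Pck1, which makes phosphoenolpyruvate, was at 2025 ± 614 CPM in saline and 6022 ± 256 with Dicretin, and rose by 1.57 ± 0.22 (adjusted p = 2.5e-05). G6pc, which releases glucose, rose by 1.70 ± 0.27 (adjusted p = 9.65e-05). It also rose under calorie restriction, by 1.06 against saline (adjusted p = 0.0206), a call lost without calorie restricted 7 or saline 35 or 73 (adjusted p up to 0.0764), and Dicretin did not pass against calorie restriction (0.64, adjusted p = 0.0741). Slc37a4, the carrier that supplies it with substrate, fell by 1.78 ± 0.22 (adjusted p = 5.67e-06).

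The partners and targets of Mlxipl changed in both directions. Of 10 transcription factor genes of the sugar response, 3 rose and 2 fell with Dicretin against saline, where 36.7% of all genes were called. Without Semaglutide 11 and Dicretin 14, 8 of the 10 were called. Both libraries were singled out by their values, and the count moved less under every other setting. No setting called more than 5537 genes in all, with 12910 tested in the main fit. Mlx, the dimer partner of ChREBP, was at 23.8 ± 0.816 CPM in saline and 40.0 ± 10.8 with Dicretin, and rose by 0.75 ± 0.19 (adjusted p = 0.00503). Dicretin did not pass for Mlx against calorie restriction (0.34, adjusted p = 0.183) or Semaglutide (0.44, adjusted p = 0.0849). Srebf1, the insulin-responsive regulator of fat synthesis, fell by 2.50 ± 0.36 (adjusted p = 3.32e-05), and Hnf4a rose by 0.82 ± 0.19 (adjusted p = 0.00274). Against calorie restriction the Hnf4a rise of 0.52 (adjusted p = 0.0454) was lost under 15 other settings. Of 19 genes known as targets of ChREBP, 3 of them members of the set, 3 rose and 6 fell. Of all genes 36.7% were called. The median of the 19 was -0.65 beside -0.01 over all genes. The 9 called targets became 15 without Dicretin 14, a library singled out by its Pklr, Khk and Tkfc, which are in this list. Over all genes, at most 5350 were called against saline with 1 library left out. Slc2a2, Rgs16, Thrsp and Pklr were among the genes that fell and G6pc among those that rose. Against calorie restriction 2 rose and 7 fell (31.3% of all genes called), and against Semaglutide 4 rose and 5 fell (32.0%). Without Dicretin 14, 13 were called in each. Over all genes, leaving out 1 library gave at most 4597 calls against calorie restriction and 4240 against Semaglutide. Against calorie restriction 5 were called without Dicretin 64, without the filter on low counts or with only the groups compared. Thrsp fell by 4.49 ± 0.73 (adjusted p = 0.000215), from 922 ± 184 to 40.8 ± 26.6 CPM. Rgs16, a regulator of G protein signalling, was at 115 to 271 CPM in saline, 195 to 373 with Semaglutide, 2.16 to 11.9 under calorie restriction and 0.135 to 0.375 with Dicretin.

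Dicretin 14 stood apart for some targets of ChREBP and not for others. Its Mlxipl level of 80.5 CPM was the highest of its group, whose others ran from 62.8 to 77.3, and was below saline at 115 to 166. Of the 19 target genes, 14 were highest in this library among the 4, or 73.7%, beside 33.69% of all tested genes. The list includes Pklr, Khk and Tkfc, whose high values drew attention to this library, and the share was as high for the pentose phosphate genes, at 75.0% (6 of 8). For 10 of the 19 Dicretin 14 was at least 2 times the mean of its mates, with Pnpla3 among them at only 0.375 CPM. It lay inside the saline range for 6, above it for 8 and below it for 5. Among those above were Arrdc4, Acly and G6pc, for which all its mates were above saline too. Shares over all tested genes were not computed for these counts. The fat synthesis genes Fasn and Acaca, named after their values were seen, were above saline in Dicretin 14 (522 and 172 CPM) and low in its mates (14.7 to 41.6 and 21.7 to 43.9). Thrsp, at 48.1 CPM, and Txnip, the inhibitor of glucose uptake, at 35.3 CPM, remained within the range of its mates and below saline. Gckr and Pfkfb1 in this library, at 140.0 and 16.5 CPM, were no higher than in its mates (146 to 168 and 14.2 to 21.9). Acta1 and Prss2 were at 0 in this library and Cela1 at 6.31 CPM.

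**Figure D5:**
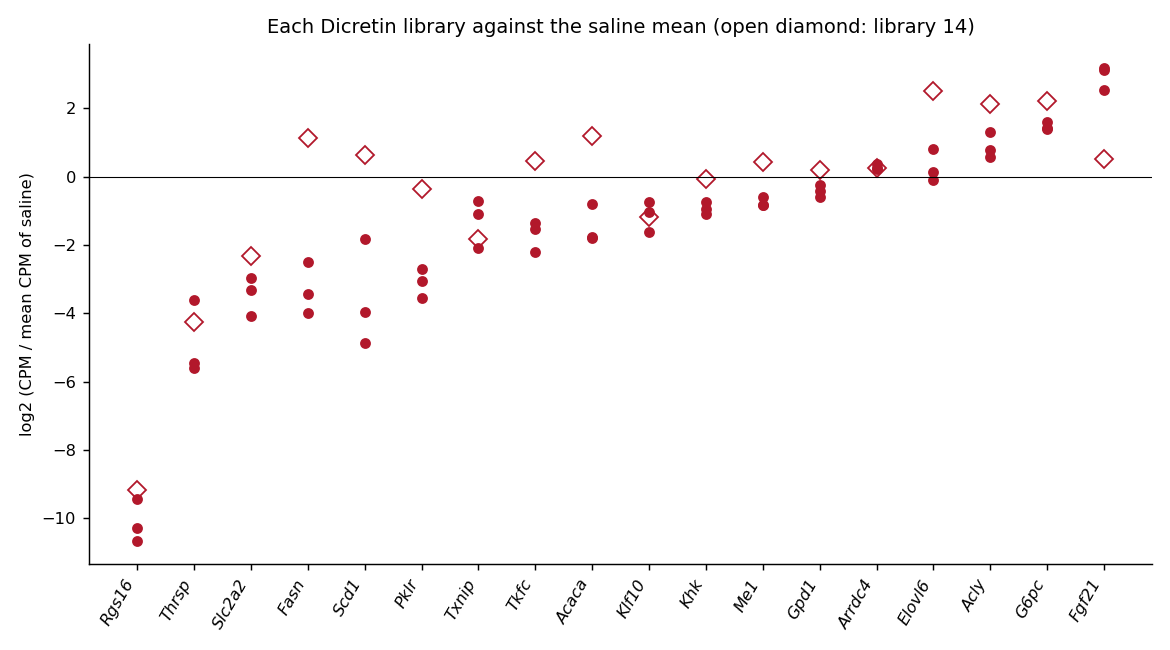
Log2 ratio of each Dicretin library to the saline mean (vertical axis) for the targets of ChREBP with a count in every Dicretin library, with Dicretin 14 as an open diamond and its mates as filled points. The diamond is near or above 0 for Pklr, Tkfc, Khk, Fasn and Acaca, where the mates are below 0, and far below 0 with its mates for Rgs16, Thrsp and Slc2a2.

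The genes most like each of the 8 were taken as those with the smallest root mean square difference of centred log2 CPM over the 16 libraries, among 11128 genes. For Mlxipl these were Npr2 (0.23), Ccnt2 (0.23) and Pik3c2b (0.26), and Npr2, a natriuretic peptide receptor, was at 49.6 CPM in saline, 77.8 with Semaglutide and 27.1 with Dicretin. For Pfkfb1 they were Lactb2 (0.21), Tbc1d32 (0.22) and Krt18 (0.22), the last a hepatocyte keratin at 177 CPM in saline and 77.8 with Dicretin. For Pfkfb3 they were A2ml1 (0.38), Rap1gap (0.45) and Slc20a1 (0.47). A2ml1 had the same order of groups, with 22.9 CPM with Semaglutide, 21.3 in saline, 9.8 under calorie restriction and 6.35 with Dicretin. For Pklr they were Ces2g (0.52), Tkfc (0.54) and Hcn3 (0.57), of which Hcn3 shares bases with it. Tkfc was thus the only one of the 8 among the 3 likest genes of another. For Tkfc they were the clock gene Per2 (0.45), Gas2l3 (0.47) and Dll1 (0.48). For Khk they were Kctd2 (0.23), Mettl9 (0.24) and Sae1 (0.25), for Gckr they were Wdr18 (0.10), Ubxn8 (0.11) and Cnep1r1 (0.12), and for Pfkl they were Scyl3 (0.12), Ctdsp1 (0.13) and Mib1 (0.14). Small values for Gckr and Pfkl go with their small spread over all libraries, 0.17 and 0.27 on the log2 scale.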

How the data were processed

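The members and the gene lists were chosen with earlier results of these data known. The deposited values were raw counts per gene, with no normalization, in 16 liver libraries. Per the submitters' processing notes the tools were TopHat2 2.1.1 and featureCounts with genome build mm10, and per the labels' protocols the libraries were poly(A)-selected and directional. The featureCounts version, options, strand setting and annotation are not given in these sources. Symbols, exon lengths and overlaps came from GENCODE M21, and 45031 of 46078 identifiers had a symbol. A total of 22577 genes had no count in any library, and 12910 passed edgeR's filterByExpr on the 4 groups. All 16 libraries entered one fit in edgeR 4.0.16 (R 4.3.3) with TMM factors and the robust quasi-likelihood test, with 6 contrasts and Benjamini-Hochberg adjustment over all tested genes. The code was tested on simulated data. The common biological coefficient of variation was 0.24. Standard errors were taken as the log2 fold change over the square root of F, and intervals are at 95%. Library totals were 12143829 to 18755393 counts, and a member had 31 (Pfkfb3) to 15420 (Tkfc) counts in a library, so counting error weighs most on Pfkfb3. CPM were computed from the full totals times the TMM factor, and a prior count of 2 was used for log2 CPM in the likeness measure (genes of at least 1 CPM on average). Alternatives were other scaling factors, DESeq2 1.42.0, limma-voom (limma 3.58.1), other filters, fewer groups and left-out libraries. The genes named beside the 8 were, per list, up to 4 with the smallest p in Dicretin against saline and up to 2 in Dicretin against Semaglutide, the 3 likest genes, and any library standing apart. Isozymes, overlapping neighbours and the genes set beside Dicretin 14 lie outside that rule and were chosen after their values were seen. The labels name no batch. A gene withheld from the lists is not reported here.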

Additional observations from a re-analysis of the deposited data

Results flagged for a closer look

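A library was set apart when its gap to the nearest mate, over the range of its group, exceeded Dixon's critical value for 4 samples at 95%. Of 32 pairs of a gene and a group, 5 passed, and chance flags about 1 in 20 groups. Dicretin 14 passed for Pklr, at 203.2 CPM with mates from 22.1 to 39.9, and for Tkfc, at 627.0 CPM with mates from 99.2 to 176. Semaglutide 11 passed for Khk, at 873.0 CPM with mates from 424 to 499, and for Gckr, at 201.1 CPM with mates from 153 to 161. Calorie restricted 8 passed for Gckr, at 198.3 CPM with mates from 141 to 143. Semaglutide 11 had the lowest TMM factor of all libraries (0.853) and Dicretin 14 the highest (1.12), and the part of these in the values was not tested.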

How the results depend on the processing

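Over 48 fold changes (8 genes in 6 comparisons) and 25 alternatives each, 1115 of 1200 values kept direction and side of the threshold, 41 lost a call, 30 gained one and 14 changed sign. Of the 13 calls, 9 held under every alternative (Mlxipl and Pfkfb1 in the 3 Dicretin comparisons, and Pfkfb3 in Dicretin against saline, Dicretin against Semaglutide and Semaglutide against calorie restriction). The sign changes were all in uncalled values, with 1 library left out or, once, 2. They were Khk in Semaglutide against calorie restriction (-0.34 to 0.11) and in calorie restriction against saline (-0.11 to 0.18), Pfkfb1 in Semaglutide against saline (-0.16 to 0.07), Mlxipl (-0.11 to 0.29) and Pklr (-0.51 to 0.11) in calorie restriction against saline, and Gckr in Dicretin against calorie restriction (-0.08 to 0.10). The last was 0.01 with Semaglutide 11 and Dicretin 14 both left out. Signs were compared after rounding. Khk in Semaglutide against saline rounded to 0 in the main fit, so its values on either side of 0 (-0.30 to 0.12) were not counted as sign changes.

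Members called in Dicretin against calorie restriction were 3 with no low-count filter, 2 with only the groups compared in the fit and 2 to 6 with 1 library left out (3 without Semaglutide 15 or 31, Dicretin 23 or 64, calorie restricted 8 or saline 35, 50 or 73, and 2 without Dicretin 65 or calorie restricted 7). In calorie restriction against saline 1 (Pfkfb1) was called with only the groups compared. With Semaglutide 11 and Dicretin 14 both left out, 7 were called in Dicretin against saline and 6 in Dicretin against Semaglutide. With 1 library left out the range was 1 to 2 in Semaglutide against calorie restriction and 3 to 6 in Dicretin against Semaglutide, the high end of each without Dicretin 14. Over all genes, calls in Semaglutide against saline (539) were 982 with DESeq2 and 256 to 778 with 1 library left out, most reduced without saline 35, 50 or 73. Those in calorie restriction against saline (972) were 1528 with DESeq2, 2569 with only the groups compared, 1880 with both libraries left out and 502 to 1368 with 1 left out, most reduced without calorie restricted 7 or saline 35, 50 or 73. Those in Semaglutide against calorie restriction (790) were 1291 with DESeq2 and 445 to 1167 with 1 left out, most reduced without Semaglutide 11 or 31 or calorie restricted 7 or 52. Those in Dicretin against Semaglutide (4128) were 2658 with only the groups compared. The cause of these changes was not tested. No paired analysis was possible because the groups share no replicate numbers. Depth limits Pfkfb3 most, with 31 counts in Dicretin 23.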
